A study of Mus musculus with 3 samples.

Results

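The comparison set pro-B cells, early B cell precursors, directly against lymphoid-primed multipotent progenitors (LMPP), progenitors that can still form myeloid and lymphoid cells. Both populations were sorted from C57BL/6J mouse bone marrow and sequenced cell by cell with the 10x Chromium 3′ v2 chemistry, 1 library per population. The LMPP gate was cKit+ Sca1+ Flt3+ IL7Ra- B220- and the pro-B gate was cKit+ Sca1- Flt3- IL7Ra+ B220+; a common lymphoid progenitor library (CLP; cKit+ Sca1+ Flt3+/- IL7Ra+ B220-) is given beside them for reference. The labels name no genetic change or treatment for these populations, and they do not give the age or number of the mice behind a library. All cells of either library with at least 500 detected genes and at most 10% of UMIs (unique molecular identifiers, here 1 per captured transcript) from mitochondrial genes were members. They were 1106 pro-B cells and 579 LMPP cells, 1685 of the 2633 cells that passed the same filter in the series. With 1 library a side there was no replicate, no test was made, and a difference between populations cannot be told apart from a difference between droplet runs. Intervals below are 95% intervals that cover counting error only.

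B cells arise when multipotent progenitors pass through lymphoid-restricted stages and switch on a network of transcription factors, among them E2A (encoded by Tcf3), Ebf1 and Pax5. Pro-B cells rearrange the immunoglobulin heavy chain locus with the RAG recombinase. A successful heavy chain then pairs with the surrogate light chain, made of VpreB and λ5 (Igll1), and with the Igα and Igβ signalling chains (Cd79a and Cd79b) to form the pre-B cell receptor. LMPP carry transcripts of stem and progenitor regulators such as Hlf, Meis1 and Mecom and low-level transcripts of several blood lineages.

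The highest pro-B over LMPP ratios included chains of that receptor and Vpreb3, a protein related to VpreB, and the promoters of 3 such genes are shown because these genes were higher together. The sequences are RefSeq promoters of build GRCm38.p6, printed 5′ to 3′ on the strand of the gene, ending at the last base before an annotated first exon and overlapping no exon of the gene: Igll1 at chr16:16863986-16864235 (minus strand), Vpreb3 at chr10:75948050-75948299 (plus strand) and Cd79a at chr7:24897247-24897380 (plus strand). Capitals mark matches, on either strand, to the E-box CAGGTG, a sequence bound by E proteins; to CCCNNGAG, part of the sequence that Ebf1 binds; and to the octamer ATGCAAAT, bound by Oct factors that work with the coactivator Pou2af1.
Igll1: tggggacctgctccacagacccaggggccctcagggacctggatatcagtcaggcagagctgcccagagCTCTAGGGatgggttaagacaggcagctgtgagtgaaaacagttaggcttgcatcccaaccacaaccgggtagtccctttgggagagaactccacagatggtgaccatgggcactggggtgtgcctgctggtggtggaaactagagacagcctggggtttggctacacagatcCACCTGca
Vpreb3: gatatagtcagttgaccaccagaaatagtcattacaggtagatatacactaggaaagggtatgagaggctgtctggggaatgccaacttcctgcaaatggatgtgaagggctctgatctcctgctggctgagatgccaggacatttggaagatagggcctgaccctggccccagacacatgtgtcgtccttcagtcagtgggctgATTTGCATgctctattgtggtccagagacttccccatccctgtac
Cd79a: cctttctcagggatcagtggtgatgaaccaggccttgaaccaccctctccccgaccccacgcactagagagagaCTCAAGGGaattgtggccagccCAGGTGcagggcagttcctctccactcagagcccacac
In the Igll1 promoter CAGGTG lay 8 to 3 bases before the start and CCCNNGAG 181 to 174 bases before it. In Cd79a the same pair lay at 154 to 149 and at 176 to 169 bases before the RefSeq start. The octamer lay 45 to 38 bases before the start of Vpreb3. The marked matches did not overlap. Of 32851 RefSeq promoters, 17.2% held CAGGTG in the 250 bases before the start, 20.7% held CCCNNGAG and 1.60% held ATGCAAAT. The motifs were chosen after their matches in these promoters were seen, so these shares are no test of enrichment. The Vpreb3 stretch lies in an intron of a longer annotated transcript of the gene. A match is a description of the letters and not a binding site.

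The defining transcripts matched the labels. Cd79a was at 1851 CPM (UMIs of the gene per 1000000 UMIs of the library, a scale that does not correct for transcript length) in pro-B and 1.49 CPM in LMPP. Pax5 was at 103 CPM in pro-B and had no UMI in LMPP, so it was at least 138-fold higher. Cd34, a surface marker of early progenitors, was at 524 CPM in LMPP and had no UMI among 7367156 in pro-B, at least 1287-fold lower against a floor of 3 UMIs. Cebpa, a regulator of myeloid fate, was at 37.4 CPM in LMPP, with 2 UMIs (0.271 CPM) in pro-B. Its log2 ratio was −7.10 (interval −10.16 to −5.23). The genes of the gates follow from the sort and are no finding. Flt3 was at 279 CPM in LMPP and 5.16 CPM in pro-B, Ly6a (Sca1) at 114 and 6.11 CPM, and Il7r at 3.74 and 104 CPM. Kit was sorted as positive on both sides, yet its transcript was at 85.2 CPM in LMPP and 7.47 CPM in pro-B. Ptprc, which also encodes the B220 form, was at 59.3 and 33.4 CPM.

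The LMPP cells held 4014657 UMIs and the pro-B cells 7367156. Median UMIs per cell were 6789 and 5687.5, and median genes per cell 2081 and 2027. The ribosomal protein share of UMIs was 41.3%, 39.8% and 27.9% for LMPP, CLP and pro-B. Summed markers of other cell types were lower in pro-B than in LMPP for each list given here. The summed level of 5 myeloid markers was 534 CPM in LMPP and 82.4 CPM in pro-B. To count cells, each cell was first thinned to a random 2000 of its UMIs, which kept 573 LMPP and 1070 pro-B cells. Of these thinned cells, 65 in LMPP (11.3%) and 1 in pro-B had 3 or more UMIs of the myeloid markers. Without thinning more cells would reach that limit. The summed level of 5 dendritic markers was 41.3 CPM in LMPP and 0.271 CPM in pro-B, that of 6 T, NK and innate lymphoid markers 149 and 7.06 CPM, and that of 7 erythroid and megakaryocyte markers 60.5 and 9.09 CPM. Single genes made up most of some sums. Lyz2 was at 82.3 CPM in pro-B, and Nkg7 and Hbb-bt were at 142 and 45.1 CPM in LMPP. Hba-a1 and Klf1 of the erythroid and megakaryocyte list went the other way. They were at 1.25 and 0.747 CPM in LMPP and 5.43 and 1.09 CPM in pro-B. Cd3e, Cd3g, Gata1 and Epor had no UMI in either library. After the same thinning 5, 4 and 7 LMPP cells had 3 or more UMIs of the dendritic, the T, NK and innate lymphoid, and the erythroid and megakaryocyte lists. In pro-B none did. A list of 5 later B and plasma markers was at 21.2 CPM in LMPP and 10.9 CPM in pro-B, with 1 such LMPP cell and 0 such pro-B cells. In all 17 LMPP cells had 3 or more UMIs of any of these lists after thinning, myeloid markers not counted. Without them the calls below were 234 higher and 122 lower.

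Of 27998 genes, 2995 had at least 50 CPM in LMPP or pro-B. Called genes had a ratio of at least 4-fold and reached at least 50 CPM on the higher side. Below, passing the 4-fold rule means meeting both conditions. By this rule 233 genes were higher in pro-B (7.78% of the 2995), 122 were lower (4.07%), and 355 (11.9%) differed in all. Against these, 68.3% of the 2995 genes lay within 2-fold. The higher genes were 65.6% of those that differed. This split depended on the scaling. When the library totals left out mitochondrial and ribosomal genes, every log2 ratio moved by −0.32 and the counts were 199 higher and 166 lower (54.5% higher). With median-of-ratios scaling the move was −0.29 and the counts were 203 and 160 (55.9% higher). The largest ratios were on both sides: 33 genes were 64-fold or more higher and 29 were 64-fold or more lower. The share of all UMIs in the 233 higher genes was 0.881% for LMPP, 1.57% for CLP and 8.93% for pro-B. For the 122 lower genes it was 1.81%, 1.21% and 0.168%.

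**Figure D1:**
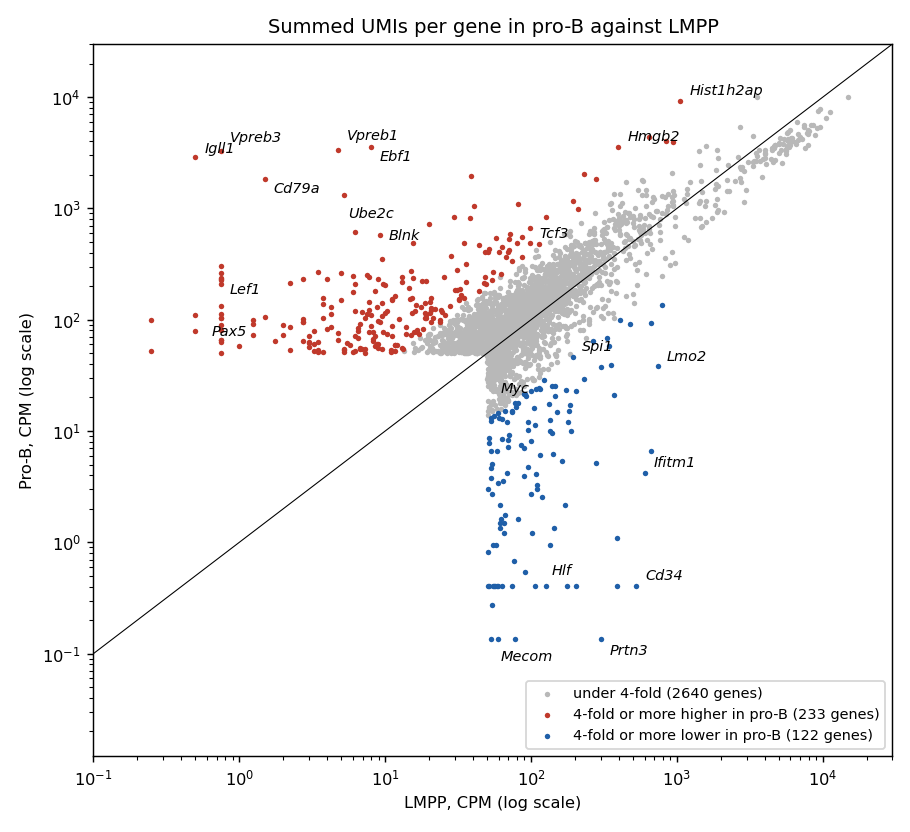
Level of each of the 2995 genes with 50 CPM or more, in LMPP (x axis, CPM, log scale) against pro-B (y axis, CPM, log scale); the line marks equal levels and genes with no UMI are drawn at the floor of 3 UMIs. Red points are the 233 genes at least 4-fold higher in pro-B and blue points the 122 at least 4-fold lower, and Igll1, Vpreb3 and Cd79a lie far above the line while Cd34 and Prtn3 lie far below it.

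All 6 genes of the pre-B receptor complex list, which counts Vpreb3 beside the genes of the receptor chains, passed the 4-fold rule. Of the 6, 4 had the highest ratios among the named genes. The surrogate light chain gene Igll1 had 2 UMIs in LMPP (0.498 CPM), 24.3 CPM in CLP and 2909 CPM in pro-B, a log2 ratio of 12.51 (10.66 to 15.56). Vpreb3, whose product accompanies nascent receptor chains inside the cell, was at 0.747 CPM in LMPP (3 UMIs), 75.7 in CLP and 3307 in pro-B (log2 ratio 12.11, 10.56 to 14.39). Cd79a was 1238-fold higher (log2 ratio 10.27, 9.15 to 11.72), from 6 UMIs in LMPP, and stood at 92.2 CPM in CLP. These 3 genes were close to the counting limit in LMPP, and in CLP they lay between LMPP and pro-B.

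Vpreb1 was at 4.73 CPM in LMPP, 43.7 CPM in CLP and 3316 CPM in pro-B, 701-fold higher in pro-B than in LMPP. Its near-identical copy Vpreb2 had 3 UMIs in LMPP (0.747 CPM) and was at 63.5 CPM in CLP and 306 CPM in pro-B (log2 ratio 8.68, 7.13 to 10.96). Reads of the pair could have been split between them by the counting, so their separate levels are uncertain. Igll1 and Vpreb1 are neighbours on chromosome 16 of GRCm38, at 16860671 to 16863985 and 16868403 to 16870843, with 4417 bases between them. Cd79b had the smallest ratio of the list, 28.4-fold. It was at 29.6 CPM in LMPP, 53.0 CPM in CLP and 842 CPM in pro-B. LMPP thus had 119 UMIs of Cd79b and 6 of its partner chain Cd79a.

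Of 16 listed B lineage regulators 13 reached 50 CPM. Of these 9 passed the 4-fold rule as higher and none as lower, against 7.78% and 4.07% of all genes with 50 CPM. The median log2 ratio of the 16 was 3.33, with the 4 genes that had no UMI in LMPP at their lower bound, beside −0.06 for the 11676 genes with 10 or more UMIs. Ebf1, a factor that opens and activates B lineage genes, was at 7.97 CPM in LMPP, 472 CPM in CLP and 3567 CPM in pro-B, 447-fold higher (log2 ratio 8.81, 8.31 to 9.35). Its 32 UMIs in LMPP came from 6 cells. Pax5, which fixes commitment to the B lineage, was at 17.3 CPM in CLP between 0 in LMPP and 103 in pro-B. Both genes lay between LMPP and pro-B in CLP.

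Of the listed regulators 3 more had no UMI among the 4014657 of LMPP. Lef1, a nuclear partner of β-catenin active in early B cells, was at 2.01 CPM in CLP and 237 CPM in pro-B (at least 317-fold higher). Pou2af1, the octamer coactivator, was at 8.21 and 211 CPM (at least 283-fold). Ikzf3 (Aiolos), which acts at later B cell stages, stayed low at 4.36 and 2.71 CPM. Lef1 thus differed mainly between CLP and pro-B, while Ikzf3 stayed under 5 CPM in each library.

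The other listed factors with UMIs in LMPP had smaller ratios than Ebf1. Tcf3, encoding the E2A proteins, was at 98.1 CPM in LMPP, 112 CPM in CLP and 486 CPM in pro-B, 4.95-fold higher (log2 ratio 2.31, 2.16 to 2.46; 1.99 when the totals left out mitochondrial and ribosomal genes). Foxo1, an activator of Il7r and Rag genes, was at 6.48, 38.5 and 84.4 CPM (13.0-fold). Ets1 was at 8.97, 43.4 and 96.4 CPM (10.7-fold) and Bach2, a repressor that holds back plasma cell and myeloid genes, at 8.22, 26.1 and 77.2 CPM (9.40-fold). For these 3 genes the order LMPP, CLP, pro-B was the same. Spib had 4 UMIs in LMPP and was at 57.8 CPM in pro-B (58.0-fold). Irf4 was at 1.25 and 33.0 CPM, under the 50 CPM minimum. Ikzf1, Bcl11a and Mef2c, which are needed for lymphoid priming and are expressed before commitment, were within 2-fold and lower in pro-B. With either other scaling Bcl11a and Mef2c were more than 2-fold lower. Ikzf1 was at 129 CPM in LMPP and 89.0 CPM in pro-B, Bcl11a at 201 and 116 CPM, and Mef2c at 380 and 222 CPM. Runx1 and Tcf12 were within 2-fold too.

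Inhibitors of E proteins did not move as a family. Id3 had no UMI in LMPP, 4.19 CPM in CLP and 264 CPM in pro-B, at least 354-fold higher. Id2, needed for innate lymphoid and NK cells, was highest in CLP at 46.6 CPM and lowest in pro-B at 6.24 CPM. Id1 had 1 UMI in LMPP and 11 in pro-B. The E protein gene Tcf4 was at 141 and 135 CPM.

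**Figure D2:**
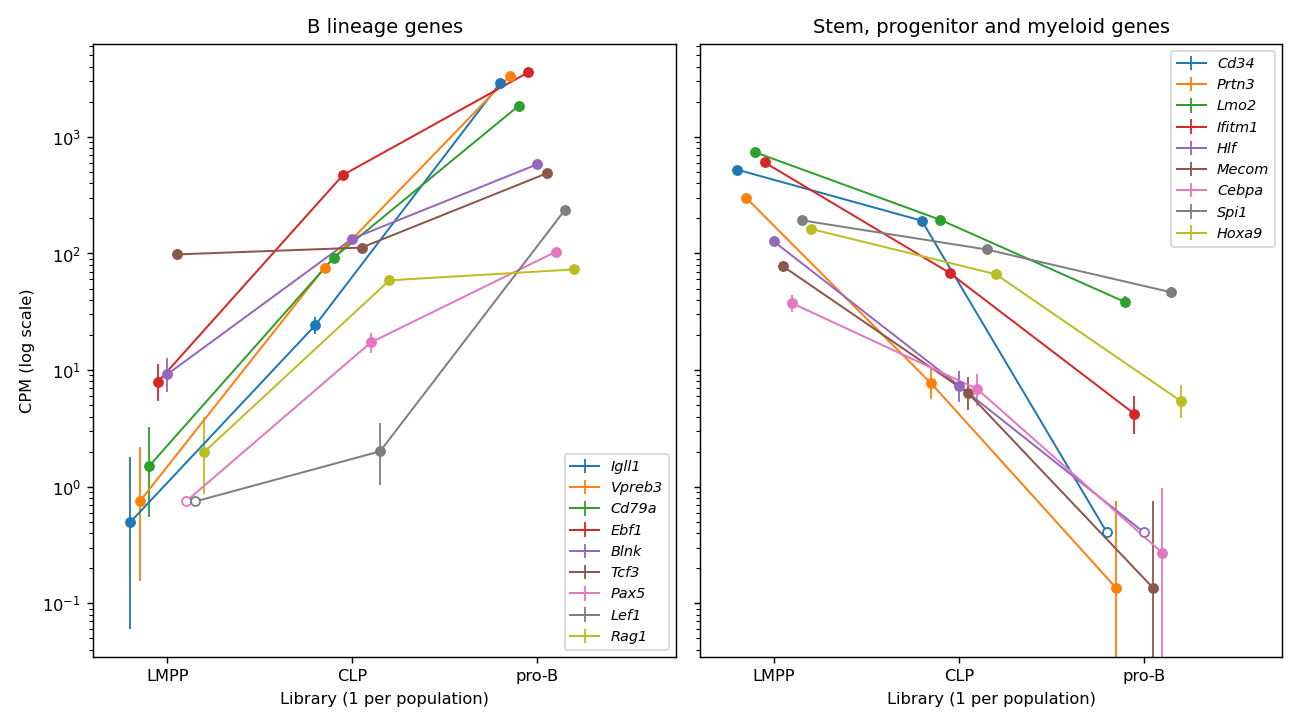
CPM (log scale) in the LMPP, CLP and pro-B libraries for 9 B lineage genes (left) and 9 stem, progenitor and myeloid genes (right); bars are 95% Poisson intervals of the level and open circles are libraries with no UMI, drawn at the floor of 3 UMIs. Igll1 spans 0.498 CPM in LMPP to 2909 CPM in pro-B, and Cd34 goes from 524 CPM in LMPP through 191 CPM in CLP to no UMI in pro-B.

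Of 19 genes for B cell signalling and surface proteins 13 reached 50 CPM. Of these 6 passed the 4-fold rule as higher and none as lower (7.78% and 4.07% of all genes with 50 CPM). Among the 19, 9 were within 2-fold and the median log2 ratio was 1.12. Blnk, the adaptor that links the pre-B receptor to its downstream kinases, was at 9.22 CPM in LMPP, 134 CPM in CLP and 582 CPM in pro-B (63.1-fold higher). Prkcb, a protein kinase C of B cell receptor signalling, was at 2.74, 10.1 and 95.6 CPM (34.9-fold). Cd24a, a surface glycoprotein used to stage early B cells, was at 193, 228 and 1159 CPM (6.01-fold). Slamf7 and Bst1 had no UMI in LMPP and were at 104 and 81.6 CPM in pro-B, with 0.335 and 1.84 CPM in CLP. Kinases of the pathway differed among themselves. Blk, a Src family kinase, had 4 UMIs in LMPP (0.996 CPM) and was at 26.5 CPM in CLP and 18.2 CPM in pro-B, under the 50 CPM minimum. Syk was at 40.4 CPM in LMPP and 62.3 CPM in pro-B, Btk at 41.3 and 55.8 CPM, and Lyn at 27.6 and 42.9 CPM. The phosphatase gene Ptpn6 was at 83.4 and 58.8 CPM. Thus the receptor chains, the adaptor and the kinase gene Prkcb differed 4-fold or more, while Syk, Btk and Lyn lay within 2-fold.

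Of 12 genes for V(D)J recombination 6 reached 50 CPM. Of these 5 passed the 4-fold rule as higher (Rag1, Rag2, Xrcc6, Hmgb1 and Hmgb2) and none as lower. Among all genes with 50 CPM, 7.78% were higher and 4.07% lower. The median log2 ratio of the 12 was 1.90. Hmgb1 and Hmgb2, DNA-bending proteins that assist the recombinase and are abundant chromatin proteins, are described with the chromatin genes below, where their ratios were smaller in cells with few cycle UMIs. Rag1 and Rag2, the recombinase, were at 1.99 and 6.48 CPM in LMPP, 58.8 and 37.5 in CLP, and 73.0 and 79.1 in pro-B, 36.6-fold and 12.2-fold higher in pro-B than in LMPP. Dntt, which adds bases at the joints, was at 406 CPM in LMPP, 1803 CPM in CLP and 1354 CPM in pro-B, a ratio of 3.34 that stayed under the 4-fold rule. Among the repair factors that join the ends, Xrcc6 (Ku70) was at 61.8, 286 and 257 CPM (4.16-fold higher; under 4-fold with either other scaling), and Lig4 at 1.25, 1.34 and 27.1 CPM. Xrcc5 (Ku80), the partner of Xrcc6, was at 13.0 CPM in LMPP and 11.7 CPM in pro-B. Prkdc, Nhej1 and Dclre1c were within 2-fold of equality and between 3.94 and 8.01 CPM. In CLP Rag1 and Xrcc6 were within 2-fold of their pro-B level, and Lig4 was not.

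Going the other way, 8 of 19 stem and progenitor transcription factors passed the 4-fold rule as lower in pro-B and none as higher. Of the 19, 11 reached 50 CPM (4.07% and 7.78% of all genes with 50 CPM were lower and higher). The median log2 ratio of the 19 was −3.86, with 4 genes that had no UMI in pro-B at their bound. Hlf, a regulator of stem cell maintenance, was at 127 CPM in LMPP and 7.37 CPM in CLP, and pro-B had no UMI (at least 311-fold lower). Mecom, which encodes the stem cell factor Evi1, was at 77.5 and 6.37 CPM with 1 UMI in pro-B (log2 ratio −9.16, −14.46 to −6.67). Nkx2-3 was at 63.0 and 2.68 CPM, and pro-B had no UMI (at least 155-fold lower). For these 3 genes CLP was already far below LMPP.

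Other factors remained measurable in pro-B. Lmo2, a bridge in stem and erythroid transcription complexes, was at 737 CPM in LMPP, 194 CPM in CLP and 38.3 CPM in pro-B (19.2-fold lower). Meis1 was at 139, 60.3 and 9.64 CPM (14.5-fold lower) and its partner Hoxa9 at 162, 66.4 and 5.43 CPM (29.9-fold lower). Hoxa7 was at 78.7, 67.0 and 16.3 CPM (4.83-fold lower). Mycn was at 62.0, 25.3 and 1.63 CPM (38.1-fold lower). In each of the 5 the order was LMPP, CLP, pro-B from highest to lowest. Erg was the exception of the list. It was at 42.1, 49.1 and 89.6 CPM, 2.13-fold higher in pro-B, and under 2-fold with either other scaling. Hhex and Lyl1 were within 2-fold, at 162 and 214 CPM in LMPP and 142 and 149 CPM in pro-B.

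Among 17 stem and progenitor surface and other genes 12 reached 50 CPM. Of these 10 passed the 4-fold rule as lower and none as higher (4.07% and 7.78% of all genes with 50 CPM). The median log2 ratio of the 17 was −6.49 (8 genes without a UMI in pro-B at their bound). Cd63, a tetraspanin, was at 107 CPM in LMPP and 7.88 CPM in CLP, with no UMI in pro-B. Ifitm1 was at 604, 68.2 and 4.21 CPM (143-fold lower) and Ifitm3, of the same interferon-induced membrane protein family, at 667, 227 and 93.5 CPM (7.13-fold lower). Ctla2a was at 667, 145 and 6.65 CPM (100-fold lower) and its close paralog Ctla2b at 90.2, 20.4 and 0.543 CPM, so reads may be split between them. Cd27, a costimulatory receptor, was at 303, 309 and 37.9 CPM, so it was level between LMPP and CLP and 8.00-fold lower in pro-B. Cd48 was 2.02-fold higher in pro-B (62.5 against 126 CPM).

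Several myeloid genes were lower in pro-B. Of 11 regulators and receptors present in the data 2 reached 50 CPM, Spi1 and Csf3r, and both passed the 4-fold rule as lower. Of 13 granule and effector genes 6 reached 50 CPM and 5 passed the rule, all lower (4.07% of all genes with 50 CPM were lower). Over members with 10 or more UMIs the median log2 ratios of the 2 lists were −3.14 and −6.18. Klf4, Gfi1, Csf2ra and Lyz2 lay within 2-fold, but with either other scaling Csf2ra and Lyz2 were more than 2-fold lower. Spi1 (PU.1), which drives myeloid fate at high dose and is used in B cells at low dose, was at 193 CPM in LMPP, 108 CPM in CLP and 46.4 CPM in pro-B (4.15-fold lower). Csf3r, the G-CSF receptor, was at 52.8 and 6.20 CPM with 1 UMI in pro-B. Cebpa and Cebpb were under 50 CPM in both libraries, with 2 and 1 UMIs in pro-B. Prtn3, the granule protease proteinase 3, was at 300 CPM in LMPP, 7.71 CPM in CLP and 0.136 CPM in pro-B (1 UMI), the lowest ratio of all named genes at −11.11 (−16.41 to −8.63). Mpo, myeloperoxidase, differed from Prtn3 in CLP: it was at 74.2 CPM in LMPP, 71.4 CPM in CLP and 0 CPM in pro-B (at least 182-fold lower). The chemokine genes Ccl3 and Ccl4 were at 203 and 388 CPM in LMPP, 84.6 and 242 in CLP, and 0 and 1.09 in pro-B. Lyz2, lysozyme, was the granule gene nearest to equality, at 156, 76.6 and 82.3 CPM. Elane and Fcnb, markers of committed granulocyte precursors, had no UMI in either library.

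Few genes of other lineages reached 50 CPM, so few could pass the rule (4.07% of all genes with 50 CPM were lower). Of 14 T and innate lymphoid genes 3 reached it. Notch1 (89.4, 157 and 21.7 CPM) and Nkg7 (142, 191 and 6.24 CPM) passed the 4-fold rule as lower in pro-B, and none as higher. The median log2 ratio of the 10 members with 10 or more UMIs was −2.79, and 8 were at least 2-fold lower. Of 12 dendritic cell genes 5 reached 50 CPM, and Cox6a2 and Runx2 passed the rule as lower. The median of 7 dendritic members was −4.15, and 5 were at least 2-fold lower. Cox6a2, a muscle-type cytochrome oxidase subunit also found in plasmacytoid dendritic cells, was at 57.5 CPM in LMPP, 476 CPM in CLP and 0.950 CPM in pro-B, so the direct comparison passes over a peak in CLP. Irf8 also peaked there, at 461 CPM, with 125 in LMPP and 153 in pro-B. Among 12 erythroid and megakaryocyte genes 1 reached 50 CPM and none passed the rule. Car2 was at 444, 43.6 and 165 CPM and Hbb-bt at 45.1, 2.51 and 2.58 CPM. Of 8 late B and plasma cell genes 2 reached 50 CPM and only Mzb1 passed. Mzb1, a chaperone of the antibody secretory pathway, was at 5.23 CPM in LMPP, 141 CPM in CLP and 1313 CPM in pro-B (251-fold higher), while Ms4a1 (CD20) had 12 UMIs in pro-B and Jchain none.

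The spread of the difference over cells was then described. Each cell was thinned to 2000 UMIs, which left out 6 LMPP, 40 CLP and 36 pro-B cells with fewer. UMIs were summed over 10 B lineage genes (Cd79a, Cd79b, Vpreb1, Vpreb2, Vpreb3, Igll1, Ebf1, Pax5, Blnk and Pou2af1). They were also summed over 10 LMPP genes (Cd34, Meis1, Hlf, Mecom, Lmo2, Hoxa9, Cd63, Ifitm1, Nkx2-3 and Myct1). These genes were chosen with earlier results of these data known and include the most extreme ratios above. A separation of the libraries by these sums therefore follows from the choice and is no further support. All 1070 pro-B cells had 3 or more UMIs of the B lineage genes, with a median of 38 and a range of 4 to 117. In LMPP 4 of 573 cells did (0.698%, 0.191 to 1.78%), and 521 cells had none. The LMPP genes gave 3 or more UMIs in 466 LMPP cells (81.3%, 77.9 to 84.4%), with a median of 5, and in 0 of 1070 pro-B cells, which allows a share of up to 0.280% by a limit of 3 cells (0.344% by the Clopper-Pearson interval). The pro-B cells had at most 2. The B lineage sums ran from 0 to 14 in LMPP, and 1 LMPP cell had 4 or more, the lowest value in pro-B being 4. In CLP 230 of 908 cells (25.3%) had 3 or more B lineage UMIs, 138 (15.2%) had 3 or more LMPP UMIs, 17 had both and 557 had neither.

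**Figure D3:**
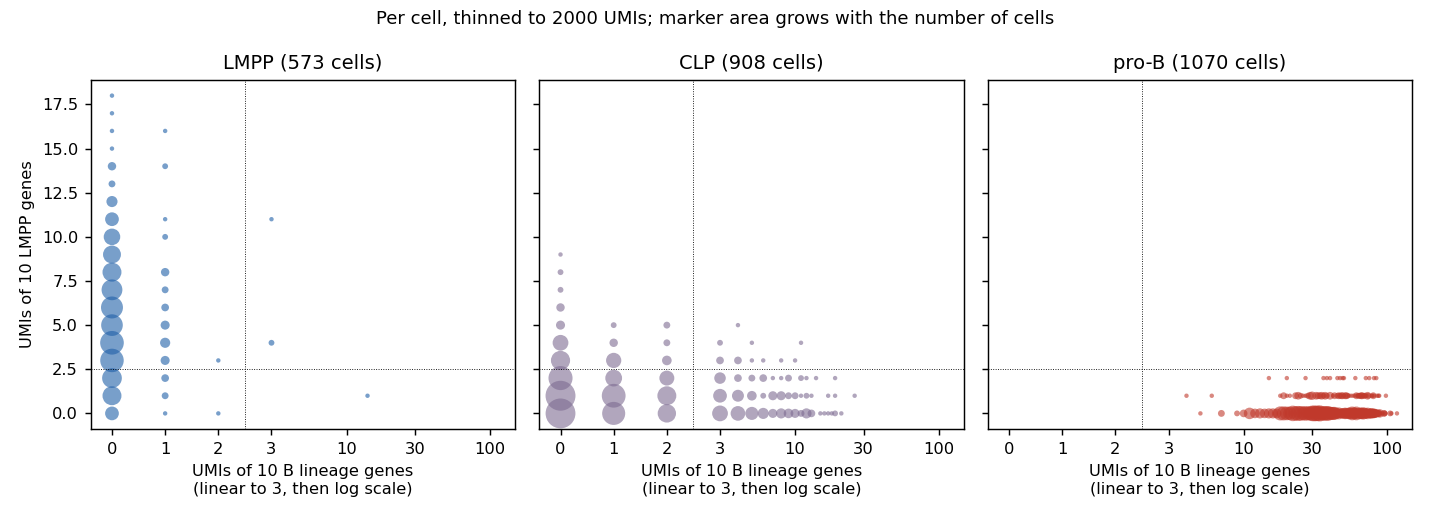
UMIs of 10 B lineage genes (x axis, linear to 3 and then log scale) against UMIs of 10 LMPP genes (y axis) per cell thinned to 2000 UMIs, for 573 LMPP, 908 CLP and 1070 pro-B cells; marker area grows with the number of cells and dotted lines mark 3 UMIs. Every pro-B cell lies right of the vertical line and below the horizontal line, and 4 LMPP cells lie right of the vertical line.

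The 4 LMPP cells held 51 of the 221 UMIs of the B lineage genes in that library. They carried 27 of its 32 Ebf1 UMIs, 5 of its 6 Cd79a UMIs and all 3 Vpreb2 UMIs, and 3 of the 4 also had 3 or more UMIs of the LMPP genes. None was called a doublet, and their median depth was 4940 UMIs. Without them the log2 ratio of Ebf1 was 11.48 in place of 8.81 and that of Cd79a 12.85 in place of 10.27. The 4 cells were picked by a list that includes both genes, so leaving them out raises these ratios by construction. Few LMPP UMIs of either gene then remained.

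Shares of cells with a UMI showed how evenly the transcripts were spread. After thinning, Igll1 was found in 98.9% of pro-B cells and 0.175% of LMPP cells, against 99.9% and 0.345% before thinning. Ebf1 was found in 99.0% and 0.524% (99.8% and 1.04% unthinned). Pax5, with its lower level, was found in 19.2% of pro-B cells (43.9% unthinned) and in none of 573 LMPP cells, which allows up to 0.524% by a limit of 3 cells (0.642% by the Clopper-Pearson interval). On the other side Cd34 was found in 62.5% of LMPP cells (91.5% unthinned) and in no pro-B cell. Ifitm1 was found in 59.9% of LMPP cells and 1.03% of pro-B cells (84.5% and 2.53% unthinned). Spi1 was found in 34.4% and 7.94% (71.3% and 24.6% unthinned). Cebpa was found in 6.81% and 0.187% (21.2% and 0.181% unthinned). Each library served as the background for genes of the other. A share reads the level as well as the number of cells that express a gene.

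Cell cycle genes made up a further part of the higher genes. The 4-fold rule was passed by 20 of 23 G2/M genes, all higher in pro-B (7.78% of genes with 50 CPM were higher). These were the 20 that reached 50 CPM, and the median log2 ratio of the 23 was 4.39. Ube2c, a ubiquitin-conjugating enzyme of mitotic exit, was at 6.23 CPM in LMPP, 10.9 CPM in CLP and 611 CPM in pro-B (98.1-fold higher). Top2a, topoisomerase IIα, was at 34.6, 75.6 and 492 CPM (14.2-fold) and Birc5, survivin, at 15.4, 30.8 and 489 CPM (31.7-fold). For these 3 genes CLP was nearer to LMPP than to pro-B. Of 20 S phase genes 16 reached 50 CPM and 6 passed, with a median log2 ratio of 1.37 over the 20. Rrm2, a subunit of ribonucleotide reductase, was at 9.47, 24.6 and 347 CPM, and Pcna, the replication clamp, at 86.2, 92.3 and 366 CPM. The share of thinned cells with 3 or more UMIs of the G2/M list was 4.89% in LMPP (3.27 to 6.99%), 6.39% in CLP (4.89 to 8.18%) and 59.6% in pro-B (56.6 to 62.6%). The share for the S phase list was 23.6%, 26.7% and 55.0%.

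The cyclin D genes differed in opposite directions. Ccnd2 was at 362 CPM in LMPP, 408 CPM in CLP and 115 CPM in pro-B (3.16-fold lower, under the 4-fold rule), and Ccnd3, the D cyclin that pre-B receptor signalling depends on, at 126, 261 and 836 CPM (6.63-fold higher). Their partner kinase genes were within 2-fold: Cdk4 was at 385 and 445 CPM and Cdk6 at 173 and 142 CPM in LMPP and pro-B. The kinase inhibitor genes Cdkn2c (p18) and Cdkn2d (p19) were 19.1-fold and 6.17-fold higher in pro-B, at 119 and 220 CPM. Abundant chromatin genes were higher as well. Hist1h2ap, of a histone cluster whose copies share sequence, was at 1057, 1308 and 9266 CPM (8.76-fold), Hmgb2 at 395, 495 and 3575 CPM (9.05-fold), Hmgb1 at 847, 1100 and 4015 CPM (4.74-fold) and H2afz at 934, 1007 and 3968 CPM (4.25-fold). With either other scaling Hmgb1, H2afz and Pcna were under 4-fold.

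To see which ratios moved with the cell cycle, the comparison was repeated over 399 LMPP and 176 pro-B cells. These had at most 2 UMIs of the S phase and G2/M lists after thinning to 2000 UMIs. The ratios used all UMIs of these cells, before thinning, so some cycle UMIs remained. Cdc25b, for example, had 8 UMIs in these LMPP cells and 99 in these pro-B cells, and Pcna had 148 and 25. The cycle genes are low there by construction. All 15 genes of the regulator and receptor lists that passed the 4-fold rule over all cells were still at least 4-fold higher, among them Igll1 at a log2 ratio of at least 12.15 (no UMI in these LMPP cells), Ebf1 at 8.99 and Tcf3 at 2.73. Of the 233 higher genes 221 were higher in these cells too, 157 of them by 4-fold or more, and 5 gave no ratio. Among the named genes Hist1h2ap and Pcna turned lower, with log2 ratios of −0.68 and −0.44. Hmgb1 went from 2.25 to 0.57, H2afz from 2.09 to 0.46, Hmgb2 from 3.18 to 1.53 and Ccnd3 from 2.73 to 1.62. Crip1 and Chchd10 kept their size, at 2.59 and 5.79. All 122 lower genes were lower in these cells too, 98 of them by 4-fold or more.

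**Figure D4:**
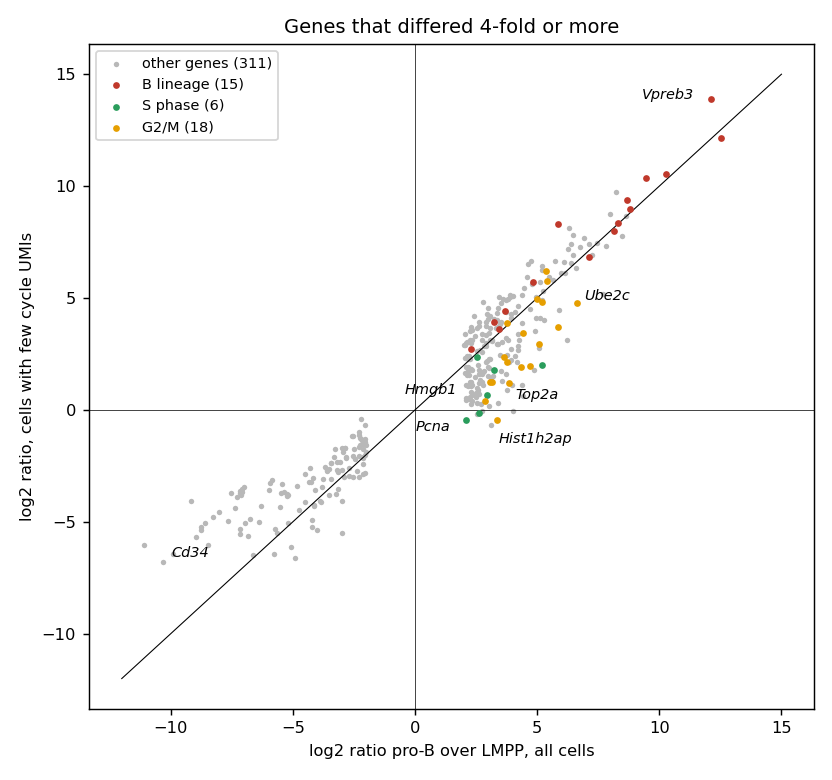
Log2 ratio of pro-B over LMPP for genes that differed 4-fold or more, over all cells (x axis) and low-cycle cells (y axis). Low-cycle cells (399 LMPP and 176 pro-B) had at most 2 UMIs of the S phase and G2/M lists after thinning to 2000 UMIs. The diagonal marks equal ratios. Hist1h2ap and Pcna lie below 0 on the y axis, while the lowest of the 15 B lineage genes there is Tcf3, at 2.73.

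IL-7 signalling genes gave no common direction. Il7r, part of the gates, was at 3.74 CPM in LMPP and 104 CPM in pro-B, and Socs2 also passed the 4-fold rule as higher. The survival gene Bcl2 was at 95.9 CPM in LMPP, 200 CPM in CLP and 12.1 CPM in pro-B (7.94-fold lower), and Myc was at 115, 134 and 23.6 CPM (4.86-fold lower). In the BCL2 family Mcl1 was level, at 82.9 and 77.6 CPM, and Bax and Bak1 were within 2-fold. Of the Notch genes, Hes1, a target of the pathway, was at 13.0, 123 and 220 CPM (17.0-fold higher) while the receptor Notch1 was 4.12-fold lower and Notch2 was at 29.9 and 1.09 CPM. Of 10 MHC class II genes 4 reached 50 CPM. Of these Cd74 (89.7 and 7.06 CPM) and H2-DMa (184 and 17.0 CPM) passed the 4-fold rule as lower, and none as higher. Among all genes with 50 CPM, 4.07% were lower and 7.78% higher. H2-Ab1 was 3.58-fold higher (34.6 and 124 CPM).

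Of 14 immediate early genes, which respond within minutes to stimuli, 12 reached 50 CPM. Of these 5 passed the 4-fold rule as lower and none as higher (4.07% and 7.78% of all genes with 50 CPM). The median log2 ratio of the 14 was −1.71. Fos was at 368 CPM in LMPP, 194 CPM in CLP and 21.0 CPM in pro-B (17.5-fold lower), and Junb at 352, 253 and 38.8 CPM (9.07-fold). Jund was at 315 and 406 CPM. Ribosomal protein genes were lower as a group, with a median log2 ratio of −0.60 over 95 genes, and 78 of the 95 were within 2-fold. Nuclear oxidative phosphorylation genes had a median log2 ratio of 0.66 over 84 genes, or 0.34 and 0.37 with the other scalings. Most of the list was abundant, with 73 of 88 genes at 50 CPM. The median of all 2995 genes with 50 CPM was 0.36, or 0.04 and 0.07 with those scalings. Only Cox6a2 of 88 passed the 4-fold rule. Glycolysis genes had a median of −0.05 (−0.37 and −0.34 with the other scalings), with Hk2, a hexokinase, at least 4-fold lower. Cholesterol synthesis genes had a median of 0.01 and Gimap genes of 0.13, and both turned negative under the other scalings (−0.31 and −0.28 for the first, −0.19 and −0.16 for the second). Homing and adhesion genes had a median of −0.08 (−0.40 and −0.37 with the other scalings) with none past the rule.

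**Figure D5:**
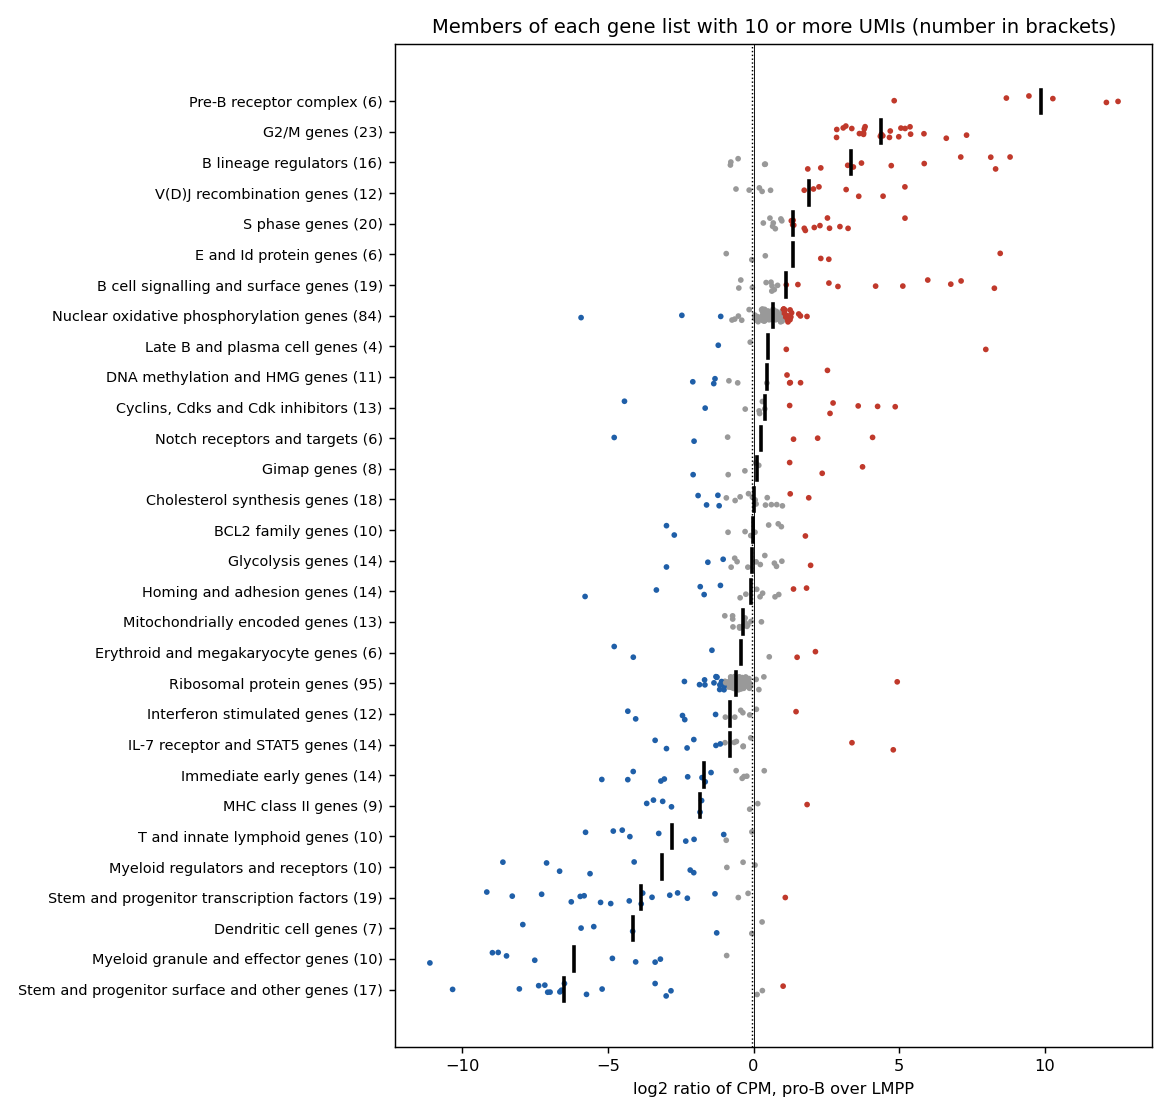
Log2 ratio of pro-B over LMPP (x axis) for each member with 10 or more UMIs of 30 gene lists (rows, number of members in brackets); red points are 2-fold or more higher, blue points 2-fold or more lower, black bars are list medians and the dotted line is the median of all 11676 genes with 10 or more UMIs. The pre-B receptor complex has the highest median (9.86), followed by G2/M genes (4.39), and stem and progenitor surface genes have the lowest (−6.49).

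Several genes outside the lists were among the highest and lowest ratios. Akap12, a kinase scaffold, had 1 UMI in LMPP and was at 99.9 CPM in pro-B (log2 ratio 8.65, 6.17 to 13.95). Cplx2, a regulator of vesicle release, had 3 UMIs in LMPP and was at 227 CPM in pro-B with 0.838 CPM in CLP. Gfra2, a receptor of the GDNF family, had no UMI in LMPP and was at 114 CPM in pro-B (at least 152-fold higher). Bcat1 and Cecr2 had 1 and 2 UMIs in LMPP and were at 52.1 and 111 CPM in pro-B. Chchd10, a mitochondrial intermembrane protein, was at 38.9, 175 and 1956 CPM (50.3-fold higher), and Crip1 at 647, 1760 and 4380 CPM (6.77-fold). Among the lower genes, Wfdc17 was at 385 CPM in LMPP and 46.6 CPM in CLP, and Gcnt2, a glycosyltransferase, at 175 and 38.2 CPM. Neither had a UMI in pro-B, which makes Wfdc17 at least 946-fold lower and Gcnt2 at least 430-fold lower. Paqr5 had 2 UMIs in pro-B against 54.1 CPM in LMPP and 31.3 in CLP. Ramp1, a receptor activity-modifying protein, was at 785, 886 and 135 CPM (5.83-fold lower). Ramp1 and Paqr5 were still high in CLP, whereas Wfdc17 was not.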

How the data were processed

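Single cells of sorted mouse bone marrow populations were profiled with 10x Chromium 3′ v2, 1 library each, and the authors deposited unnormalized UMI counts for each gene and barcode. The submitters' processing notes name Cell Ranger and mm10. Its version, annotation and rule for calling cells were not given in the sources used here. Cultured iLS cells in the labels and immunoglobulin gene segments were not analysed here.

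Of 599 LMPP, 979 CLP and 1123 pro-B barcodes, the mitochondrial limit removed 20, 31 and 16 and the gene minimum 0, 0 and 1. The LMPP and pro-B libraries shared 1 barcode sequence, LMPP and CLP 3, and CLP and pro-B 2. Scrublet in scanpy 1.11.5 (expected rate 1%) called 30, 14 and 2 doublets. With 2 pro-B calls, whether the caller worked there was not tested. Called cells were kept.

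UMIs were summed over cells and divided by the library total (CPM). At 50 CPM the LMPP library had 200.7 UMIs and the pro-B library 368.4, and the floor of 3 UMIs was 0.747 and 0.407 CPM. Ratios have exact conditional (Clopper-Pearson) intervals for Poisson counts and levels exact Poisson intervals, from scipy 1.17.1. Where 1 side had no UMI, its count was taken as 3 UMIs, which makes the fold a bound. List medians use members with 10 or more UMIs. Shares of cells likewise have Clopper-Pearson intervals. Kinases and a binding protein whose symbols start with Rps were left out of the ribosomal list.

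Named genes were, among those past 4-fold and 50 CPM, the 15 highest and 15 lowest ratios, the 10 largest gains and 10 largest losses in CPM and the 5 highest with no UMI in a library, without sort, mitochondrial, ribosomal and unnamed genes. To these came the marker and sort genes, all members of the main lists and the 6 most abundant of each other list. Socs2 and Hk2 were named after their values were seen. The members and lists were chosen with earlier results of these data known, and the promoter motifs after their matches were seen. Named genes were matched by Ensembl ID to GENCODE M21 on GRCm38. The counting of calls was tested on simulated data. Alternatives were other scalings, all barcodes, equal weight per cell, no doublet calls, minima of 10 and 200 CPM, cells with few cycle UMIs and no cells with markers of other types. Leaving out LMPP cells with B lineage UMIs was chosen after seeing the data.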

Additional observations from a re-analysis of the deposited data

How the results depend on the processing

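Of the counts past 4-fold, only the CPM minimum moved them by over 1.5 times among the alternatives run. With a minimum of 10 CPM 440 genes were higher and 477 lower, and with 200 CPM 81 were higher and 21 lower. The share of genes within 2-fold was 70.9% without mitochondrial and ribosomal genes in the totals, 71.2% with median-of-ratios scaling, 70.7% at 10 CPM and 63.4% at 200 CPM. In cells with few cycle UMIs the log2 ratios of Hist1h2ap and Pcna turned to −0.68 and −0.44; these cells were chosen for low cycle transcripts, which include Pcna. There 231 genes were higher and 135 lower, and 120 and 97 of them were the same genes as over all cells. The counts were 237 and 122 over all barcodes, 235 and 121 with equal weight per cell, and 236 and 123 without doublet calls. With 1 library per population no library could be left out. No paired analysis was possible because each population had 1 library and no replicate number. Depth limits ratios whose lower side has 3 UMIs or fewer, such as Igll1, Vpreb3 and Prtn3, to wide intervals or bounds.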

Other observations

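Genes of DNA methylation and the HMG family were mixed. Of 11, Uhrf1, which guides the maintenance methyltransferase to replicated DNA, was at least 4-fold higher in pro-B, at 32.6 CPM in LMPP, 69.7 CPM in CLP and 189 CPM in pro-B. The maintenance enzyme gene Dnmt1 was at 40.1, 43.1 and 94.7 CPM (2.36-fold higher), and the nucleosome-binding gene Hmgn2 at 581, 499 and 1778 CPM (3.06-fold higher). The lowest member was Dnmt3b, a de novo methyltransferase, at a log2 ratio of −2.09.

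Of 12 interferon stimulated genes 3 reached 50 CPM. Only Oasl2 passed the 4-fold rule, at 54.1 CPM in LMPP, 15.8 CPM in CLP and 2.71 CPM in pro-B. Irf7 was at 49.3, 27.8 and 9.09 CPM, while Ifi27l2a was at 119, 162 and 326 CPM. Among adhesion genes the integrin gene Itga4 was at 43.6, 104 and 113 CPM and the hyaluronan receptor gene Cd44 at 65.5, 74.1 and 20.2 CPM. The Gimap family, GTPase genes of lymphocyte survival, held Gimap4 at 3.24, 50.1 and 43.3 CPM and Gimap6 at 197, 299 and 207 CPM.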
